A study of Mus musculus with 6 samples.

Results

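The glycolysis and hypoxia response genes described here were 32 genes that carry glucose into cells, break it down to lactate, or belong to the cellular response to low oxygen. They were chosen by symbol, and the array's probes were matched to them through the transcript accession that each probe carries. The 32 genes were covered by 48 probes, of which 47 passed a filter on dim signal, and all 32 genes were among the 16407 genes tested. Each was well above background on all 6 arrays. Ero1l is listed as Ero1a in the gene table used for names. The samples were skin wounds on day 3 in male C57/BL6 mice, 3 arrays from FoxO1 +/- mice and 3 from WT (wild type) mice. Each mouse received 4 full-thickness wounds in the back skin with a 4-mm punch, and the tissue was taken with a 6-mm punch, so a sample holds wound bed and wound margin. Both genotypes were wounded, and unwounded skin was not analysed here. How the FoxO1 allele was made, in which cells it is disrupted, the age of the mice and whether wounds were pooled are not stated in the labels. The p-values below therefore measure the spread between these arrays.

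Glycolysis splits glucose into pyruvate, and lactate dehydrogenase turns pyruvate into lactate when oxygen is scarce or when flux is high, as in activated neutrophils and macrophages. Under normal oxygen the prolyl hydroxylases of the EGLN family mark the alpha subunits of hypoxia-inducible factor (HIF) for degradation. When oxygen falls the HIF alpha subunits persist, pair with ARNT and switch on genes with a short core motif, among them most glycolytic enzymes. Fresh wounds are poor in oxygen because vessels are cut and infiltrating leukocytes consume what arrives. FOXO1 is a transcription factor held out of the nucleus by insulin signalling.

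Promoters in the reference sequence were examined first, because the members are known as a group through a shared regulator. Promoters of 300 bases, 250 before the annotated start and 50 after it, were available from RefSeq for 29 of the 32 members on build GRCm38.p6, as 39 promoters. Epas1, Ndrg1 and Slc2a3 were not among them. The HIF core ACGTG, searched on both strands, occurred in 23 of the 39 member promoters (59.0%) and in 19.6% of 32851 promoters of all genes. Counted by gene, 21 of 29 members (72.4%) had it in at least 1 promoter, against 21.8% of 27025 genes. The other form of the core, GCGTG, occurred in 59.0% of member promoters and 32.4% of all promoters. The FoxO motif GTAAACA occurred in 1 member promoter, 1 of Aldoc (2.56% against 3.65% of all promoters). Where CACGTG occurs, ACGTG is read on both strands and counted once for each. Member promoters were also richer in G and C, with a median of 65.0% against 52.7% over all promoters, and the part of base composition in these shares was not tested. A match is a run of letters and not a measured binding site.

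The promoters of 6 members that the results below turn on are printed 5′ to 3′ along the gene, with each ACGTG in capitals (CACGT where the match lies on the opposite strand). Egln1, Ero1l, Ankrd37 and Slc16a3 are shown for their wide spread between WT arrays, Ddit4 because its genotypes did not overlap, and Pgk1 as an enzyme of the central pathway whose order of arrays several others share.
Ddit4, chr10:59951721-59952020, minus strand: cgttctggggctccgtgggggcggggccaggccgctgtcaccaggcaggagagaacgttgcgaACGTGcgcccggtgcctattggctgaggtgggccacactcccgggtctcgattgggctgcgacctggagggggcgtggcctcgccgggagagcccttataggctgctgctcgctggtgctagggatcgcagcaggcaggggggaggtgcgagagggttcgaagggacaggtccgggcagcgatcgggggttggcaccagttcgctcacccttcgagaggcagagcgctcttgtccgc
Ankrd37, chr8:45999801-46000100, minus strand: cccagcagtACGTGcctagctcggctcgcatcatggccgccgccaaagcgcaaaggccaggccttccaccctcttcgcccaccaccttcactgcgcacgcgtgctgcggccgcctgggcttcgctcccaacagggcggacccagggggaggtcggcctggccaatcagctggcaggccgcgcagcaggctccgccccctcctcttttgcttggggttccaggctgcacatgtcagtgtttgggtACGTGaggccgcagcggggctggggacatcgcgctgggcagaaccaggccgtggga
Egln1, chr8:124949205-124949504, minus strand: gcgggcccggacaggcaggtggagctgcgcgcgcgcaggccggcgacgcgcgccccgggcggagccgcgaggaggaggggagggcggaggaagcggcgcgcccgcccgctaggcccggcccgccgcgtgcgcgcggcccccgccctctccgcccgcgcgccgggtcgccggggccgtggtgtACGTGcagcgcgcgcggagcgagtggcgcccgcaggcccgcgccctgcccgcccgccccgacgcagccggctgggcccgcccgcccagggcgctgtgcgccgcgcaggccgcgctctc
Ero1l, chr14:45318523-45318822, minus strand: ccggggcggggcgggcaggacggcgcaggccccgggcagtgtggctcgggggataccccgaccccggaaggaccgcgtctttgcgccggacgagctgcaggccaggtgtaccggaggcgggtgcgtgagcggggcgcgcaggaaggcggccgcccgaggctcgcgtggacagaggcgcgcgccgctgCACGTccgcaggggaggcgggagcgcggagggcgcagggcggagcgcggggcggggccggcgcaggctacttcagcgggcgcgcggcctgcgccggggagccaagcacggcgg
Slc16a3, chr11:120948817-120949116, plus strand: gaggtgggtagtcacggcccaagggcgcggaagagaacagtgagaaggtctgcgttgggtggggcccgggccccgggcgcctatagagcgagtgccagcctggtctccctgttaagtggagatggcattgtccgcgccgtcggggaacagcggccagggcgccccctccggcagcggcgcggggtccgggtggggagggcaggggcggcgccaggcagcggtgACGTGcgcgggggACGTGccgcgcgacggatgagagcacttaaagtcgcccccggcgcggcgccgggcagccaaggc
Pgk1, chrX:106186850-106187149, plus strand: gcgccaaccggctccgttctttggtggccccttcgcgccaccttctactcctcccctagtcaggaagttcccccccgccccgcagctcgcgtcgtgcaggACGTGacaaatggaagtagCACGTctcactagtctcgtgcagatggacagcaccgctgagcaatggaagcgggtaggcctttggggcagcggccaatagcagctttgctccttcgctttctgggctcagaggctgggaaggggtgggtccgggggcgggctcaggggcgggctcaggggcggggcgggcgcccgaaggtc
The Ddit4 promoter held 1 match, at base 64 of the 300. Ankrd37 held matches at bases 10 and 245, Egln1 at base 183, Ero1l at base 188, Slc16a3 at bases 224 and 237, and Pgk1 at bases 101 and 120.

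Levels are given as log2 of the processed signal minus the array's 75th percentile, so that 0 is the 75th percentile of the array and 1 unit is a doubling. Differences are FoxO1 +/- minus WT on that log2 scale. Levels are compared between arrays for 1 probe and not between genes, whose probes differ in response. The targeted gene, Foxo1, is covered by 2 kept probes. The brighter of them had levels of 1.55, 1.69 and 1.49 in FoxO1 +/- wounds, against 2.04, 1.81 and 2.32 in WT wounds, a difference of -0.48 (SE 0.15, limma adjusted p over all kept probes 0.548). The dimmer of them had levels of 0.38, 0.50 and 0.30 in FoxO1 +/- wounds, against 1.31, 1.04 and 1.51 in WT wounds, a difference of -0.89 (SE 0.14, adjusted p 0.187). The genotypes did not overlap on either probe, and neither probe passed the adjusted threshold. No source used here says whether either probe lies in the part of the gene that was altered.

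WT replicate 2 stood apart from the other arrays in these genes. It was the highest of the 6 arrays for 23 of the 32 members, against 22.0% of all genes tested, and the lowest for 2, Epas1 and Adm, against 18.5%. No member was highest on WT replicate 1 or 3, against 17.2% and 11.2% of all genes. WT replicate 1 was lowest for 19 members (15.8% of all genes) and WT replicate 3 for 8 (22.1%). FoxO1 +/- replicates 1, 2 and 3 were highest for 5, 2 and 2 members, against 11.6%, 17.1% and 20.9% of all genes. They were lowest for 0, 3 and 0 members, against 14.4%, 11.9% and 17.2%. The median deviation of the members from their own means was 0.03, -0.03 and 0.12 on FoxO1 +/- replicates 1, 2 and 3, against -0.21, 0.32 and -0.19 on WT replicates 1, 2 and 3. The WT arrays therefore lay on both sides of the FoxO1 +/- arrays. Differences below are given with all arrays and, for the members and the counts over gene lists, also without WT replicate 2, which was singled out after its values were seen.

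**Figure D1:**
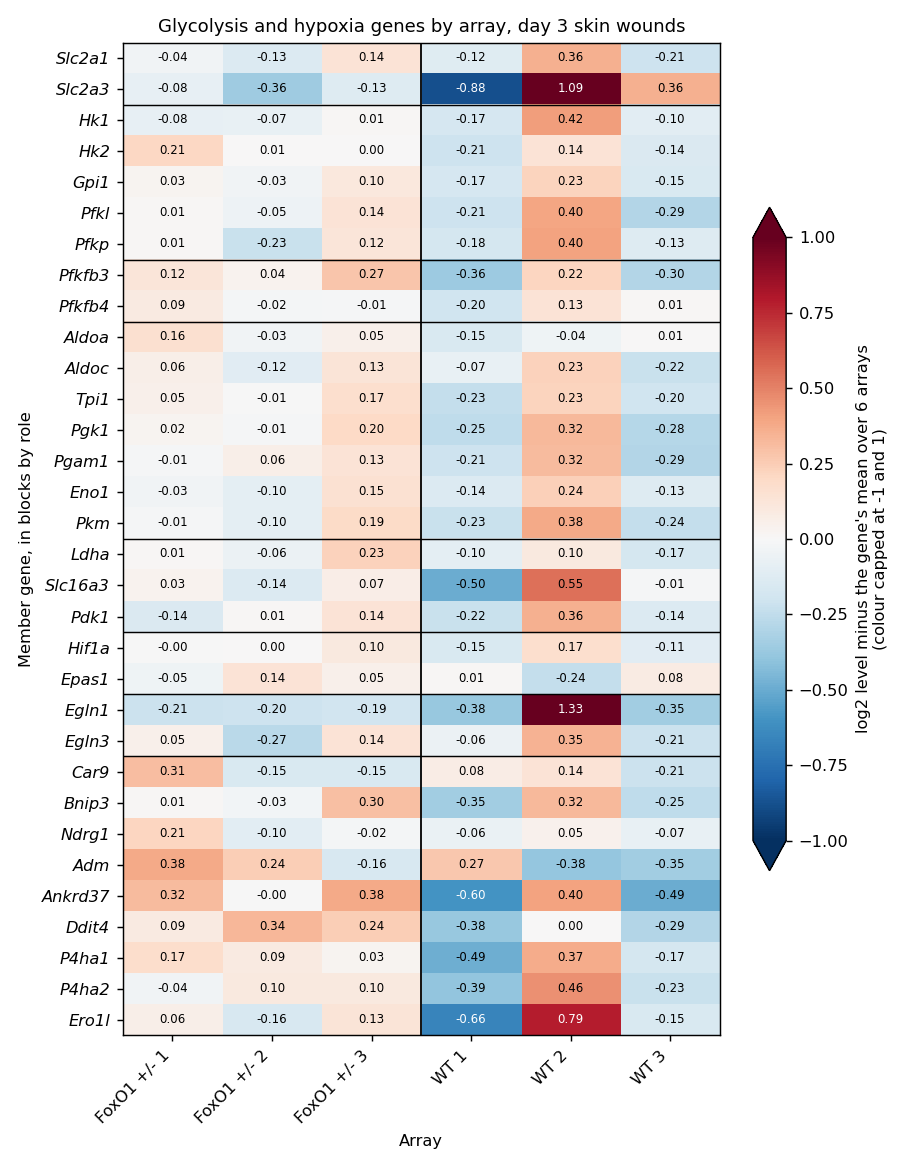
Heat map of the 32 members (rows, by role) on the 6 arrays (columns, FoxO1 +/- left of WT), coloured by the log2 level minus the gene's mean over the 6 arrays. The WT replicate 2 column is highest for 23 of the 32 members, and the WT replicate 1 and 3 columns hold the lowest array for 27.

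The spread between arrays was wide in WT wounds and ordinary in FoxO1 +/- wounds. The median SD of the members was 0.12 in FoxO1 +/- wounds and 0.31 in WT wounds, whereas over all genes tested it was 0.12 in FoxO1 +/- and 0.13 in WT. The SD was larger in WT for 28 of 32 members, against 55.0% of all genes tested. Aldoa, Ldha, Car9 and Ndrg1 were the 4 exceptions. Ldha was one only on its brightest probe, the one used here. Its other kept probes had SDs of 0.27 and 0.25 in WT, against 0.16 and 0.15 in FoxO1 +/- wounds. For 14 members all 3 FoxO1 +/- arrays lay below WT replicate 2 and above WT replicates 1 and 3, an order found in 3.84% of all genes. WT replicate 2 exceeded the mean of the other WT arrays by a median of 0.53 over the members and 0.02 over all genes tested.

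**Figure D2:**
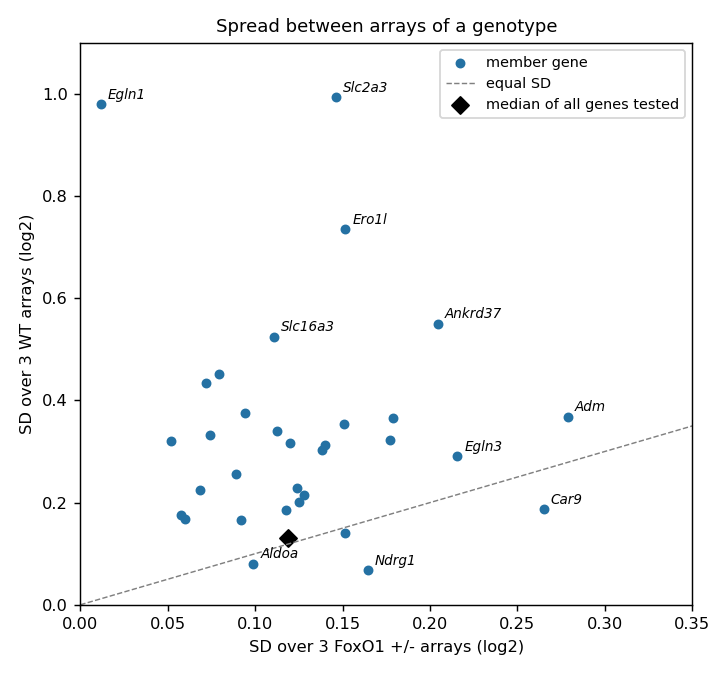
SD of the log2 level over the 3 arrays of each genotype for each member (points). A diamond marks the median over all genes tested. The members lie mostly on the side of larger WT spread, with a median SD of 0.12 in FoxO1 +/- and 0.31 in WT wounds.

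Between genotypes, no member passed an adjusted p of 0.05 by limma with Benjamini-Hochberg adjustment over 16407 genes, where 1 gene passed (0.00609%). That gene, Vmn1r227, a vomeronasal receptor gene named here after its values were seen, averaged -3.40 in FoxO1 +/- and -5.89 in WT wounds (adjusted p 0.0328). Its probe was well above background on 3 FoxO1 +/- arrays and on 1 WT array, so it entered the test through the genotype where it was high. With a filter on all 6 arrays 0 genes passed, with 961 at an unadjusted limma p of 0.05. Adjusted p-values of the members ran between 0.634 and 1.00. FoxO1 +/- means were higher for 24 members and lower for 8, against 53.9% of all genes higher, with a median difference of 0.07 for the members and 0.01 for all genes. With quantile normalization of the arrays the count higher was 16 of 32 and the median was 0.00, and Gpi1, Aldoa, Pgk1, Pgam1, Eno1, Pkm, Ldha and Pdk1 changed sign. At an unadjusted limma p of 0.05 there was 1 member, Ddit4, against 6.29% of all genes. It was higher, as were 3.48% of all genes at that p, and no member was lower, against 2.81%. Ddit4 was also the 1 member whose genotypes did not overlap, against 11.5% of all genes. With 3 arrays a genotype, the smallest exact two-sided permutation p of a single value is 0.1. In bulk wound tissue, fewer cells of a type and less RNA per cell cannot be told apart.

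**Figure D3:**
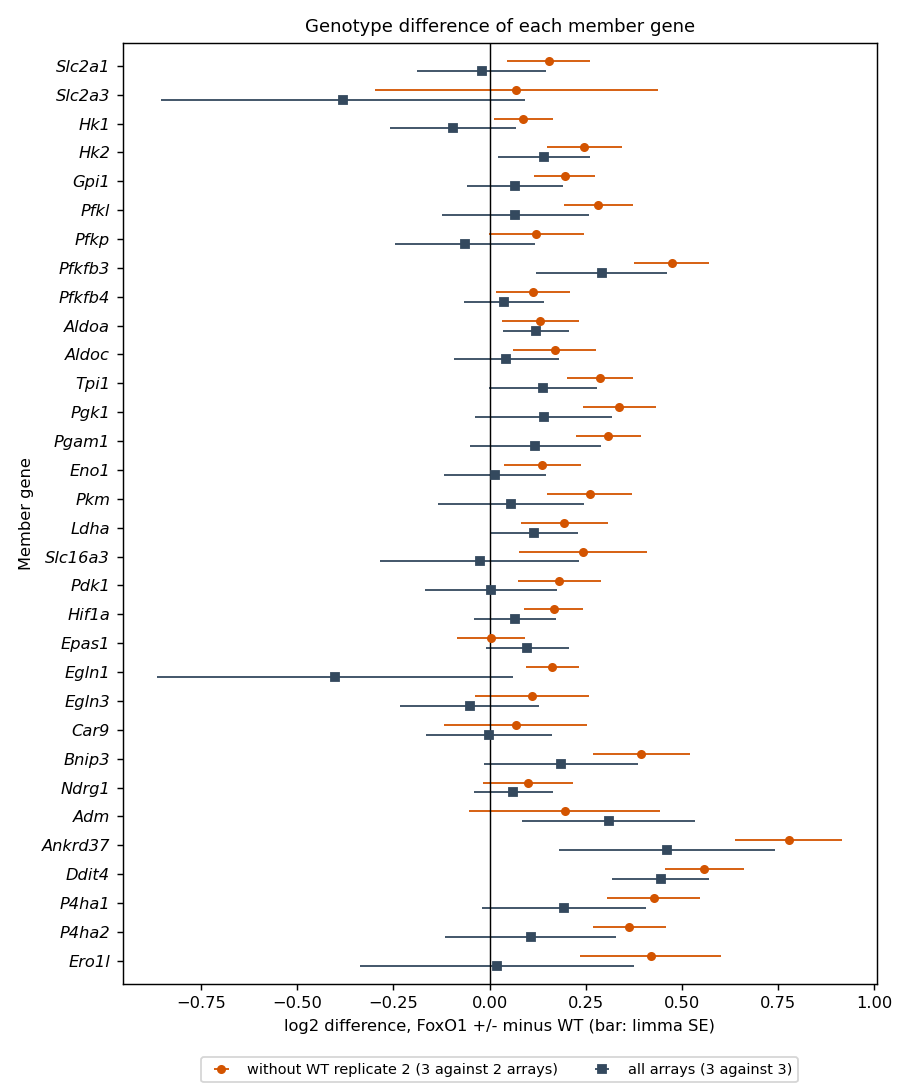
Differences of the 32 members, FoxO1 +/- minus WT, in log2 units (points, with bars for the limma SE), without WT replicate 2 and with all arrays. With all arrays they lie between -0.40 and 0.46, and without WT replicate 2 all lie above 0, with the highest at 0.78.

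Ddit4 encodes REDD1, an inhibitor of mTORC1 signalling that is induced by low oxygen, glucocorticoids and other stresses. Its levels were 5.65, 5.89 and 5.80 in FoxO1 +/- wounds, against 5.18, 5.56 and 5.27 in WT wounds. All FoxO1 +/- arrays were above all WT arrays, with WT replicate 2 just below the lowest FoxO1 +/- array. The difference was 0.44 (SE 0.13, 1.36-fold), with an unadjusted limma p of 0.0122 and an adjusted p of 0.634. Leaving out single arrays gave differences between 0.37 and 0.56. With slide row as a block the difference was 0.31 (adjusted p 1.00), and that fit sets FoxO1 +/- replicate 1 alone against the WT arrays.

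Glucose enters cells through facilitative transporters. Slc2a1 encodes GLUT1, the widely expressed one, and had levels of 4.88, 4.78 and 5.06 in FoxO1 +/- wounds, against 4.80, 5.27 and 4.71 in WT wounds, a difference of -0.02 (SE 0.17), and 0.15 without WT replicate 2. Slc2a3 encodes GLUT3, a high-affinity transporter abundant in neurons and leukocytes, and had levels of 3.11, 2.84 and 3.07 in FoxO1 +/- wounds, against 2.32, 4.29 and 3.55 in WT wounds. The FoxO1 +/- arrays lay inside the WT range for both genes, and the WT arrays of Slc2a3 spread over an SD of 0.99. The Slc2a3 difference was -0.38 (SE 0.47, limma adjusted p 0.969), and 0.07 without WT replicate 2. Without WT replicate 1 it was -0.91 (SE 0.24, adjusted p 0.781), lower in FoxO1 +/- wounds. In that fit 3 members were at an unadjusted limma p of 0.05, against 916 of 16407 genes tested. Beside Slc2a3 these were Adm at 0.52 and Ddit4 at 0.37, both higher.

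Hexokinases trap glucose as glucose 6-phosphate, glucose phosphate isomerase converts it to fructose 6-phosphate, and phosphofructokinases commit it to glycolysis. Hk1, the constitutive hexokinase, had levels of 4.35, 4.36 and 4.44 in FoxO1 +/- wounds, against 4.26, 4.85 and 4.33 in WT wounds. Hk2, the insulin- and hypoxia-inducible form, had levels of 2.79, 2.59 and 2.58 in FoxO1 +/- wounds, against 2.37, 2.72 and 2.44 in WT wounds. WT replicate 2 was the top array for Hk1 but not for Hk2, where FoxO1 +/- replicate 1 was higher. Gpi1 had levels of 7.12, 7.06 and 7.19 in FoxO1 +/- wounds, against 6.92, 7.32 and 6.94 in WT wounds. Pfkl, the liver-type phosphofructokinase, had levels of 1.21, 1.14 and 1.33 in FoxO1 +/- wounds, against 0.98, 1.59 and 0.90 in WT wounds. In both genes the 3 FoxO1 +/- arrays lay between WT replicate 2 and the other WT arrays. Pfkp, the platelet-type enzyme, differed by -0.06 (SE 0.18) with all arrays and by 0.12 without WT replicate 2, and overlapped between genotypes. The 5 genes of these steps had differences between -0.10 and 0.14 with all arrays, and between 0.09 and 0.28 without WT replicate 2.

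Pfkfb3 and Pfkfb4 make fructose 2,6-bisphosphate, the strongest allosteric activator of phosphofructokinase. Pfkfb3, induced by HIF and inflammatory signals, had levels of 3.42, 3.34 and 3.57 in FoxO1 +/- wounds, against 2.94, 3.52 and 3.00 in WT wounds. WT replicate 2 sat among the FoxO1 +/- arrays while the other WT arrays lay below them all. Its difference was 0.29 (SE 0.17, limma adjusted p 0.868), and 0.47 without WT replicate 2 (SE 0.10, adjusted p 0.233). Pfkfb4 differed by 0.04 (SE 0.10), and by 0.11 without WT replicate 2, with levels of 2.86, 2.75 and 2.76 in FoxO1 +/- wounds, against 2.57, 2.90 and 2.78 in WT wounds, which overlap.

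The 7 enzymes between aldolase and pyruvate kinase had differences between 0.01 and 0.14, all higher in FoxO1 +/- wounds, of which Aldoa, Pgk1, Pgam1, Eno1 and Pkm turned sign with quantile normalization. For 6 of the 7 the highest array was WT replicate 2. Without that array the 7 differences lay between 0.13 and 0.34. At an unadjusted limma p of 0.05 there were then 3, Tpi1, Pgk1 and Pgam1, against 9.14% of all genes. All 3 were higher, against 4.51% of all genes. That array was singled out because it was highest in genes such as these, so this count is description and no test. Pgk1, the first ATP-forming enzyme of the pathway, had levels of 6.64, 6.60 and 6.81 in FoxO1 +/- wounds, against 6.36, 6.93 and 6.33 in WT wounds. Pgam1, which moves the phosphate of 3-phosphoglycerate, had levels of 6.39, 6.47 and 6.54 in FoxO1 +/- wounds, against 6.20, 6.73 and 6.11 in WT wounds. Tpi1, which interconverts the triose phosphates, had levels of 6.35, 6.29 and 6.47 in FoxO1 +/- wounds, against 6.06, 6.52 and 6.10 in WT wounds. On the probes given here these 3 genes share the same order of arrays, with WT replicate 2 on top, FoxO1 +/- in the middle and WT replicates 1 and 3 below. On another, dimmer Tpi1 probe FoxO1 +/- replicate 3 was highest, at 4.41 against 4.32 on WT replicate 2. Pkm, pyruvate kinase, had levels of 6.08, 5.99 and 6.28 in FoxO1 +/- wounds, against 5.87, 6.47 and 5.85 in WT wounds. Eno1, enolase, had levels of 7.34, 7.28 and 7.52 in FoxO1 +/- wounds, against 7.24, 7.62 and 7.25 in WT wounds. Both follow the order of Pgk1 as well. Aldoa and Aldoc encode aldolases. Aldoa was the exception of the group, with levels of 8.58, 8.38 and 8.47 in FoxO1 +/- wounds, against 8.27, 8.38 and 8.42 in WT wounds, where WT replicate 2 was not highest. Aldoc, the brain-type aldolase, differed by 0.04 (SE 0.14), and by 0.17 without WT replicate 2. Several of these enzymes have near-identical gene copies, such as Eno1b for Eno1, and signal from such copies cannot be separated here.

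At the end of the pathway, Ldha makes lactate, Slc16a3 (MCT4) exports it and Pdk1 blocks entry of pyruvate into mitochondria. Ldha had levels of 8.13, 8.06 and 8.35 in FoxO1 +/- wounds, against 8.03, 8.22 and 7.95 in WT wounds, a difference of 0.12 (SE 0.11), and 0.19 without WT replicate 2. Its highest array was FoxO1 +/- replicate 3, although on a dimmer Ldha probe WT replicate 2 was the highest. Slc16a3 had levels of 6.02, 5.85 and 6.06 in FoxO1 +/- wounds, against 5.49, 6.54 and 5.98 in WT wounds. Its level on WT replicate 2 was 1.75-fold above the mean of the other WT arrays, and the second Slc16a3 probe had the same top and bottom arrays. The Slc16a3 difference was -0.03 (SE 0.26), and 0.24 without that array. Pdk1 had levels of 1.21, 1.37 and 1.49 in FoxO1 +/- wounds, against 1.13, 1.71 and 1.22 in WT wounds, with a difference of 0.00 (SE 0.17), and 0.18 without WT replicate 2.

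**Figure D4:**
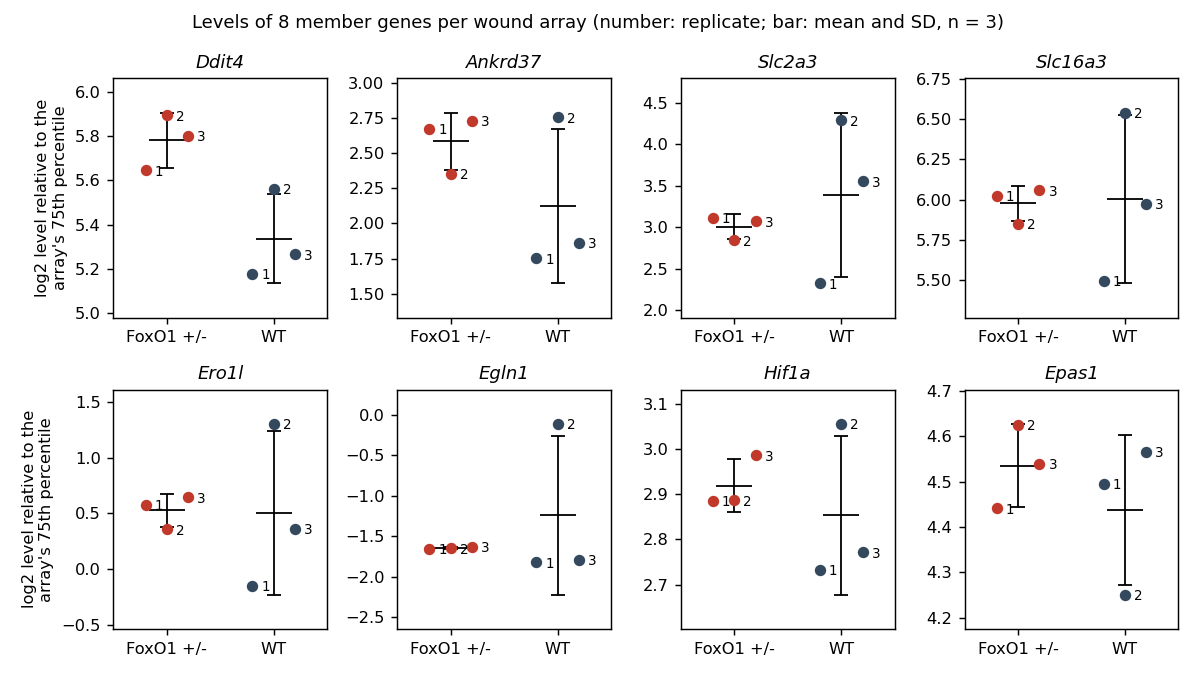
Log2 levels of 8 members on each array (points numbered by replicate, bars for the mean and SD of 3 arrays, FoxO1 +/- left of WT). WT replicate 2 is the top point for Ankrd37, Slc2a3, Slc16a3, Ero1l, Egln1 and Hif1a and the lowest for Epas1, while the genotypes are apart for Ddit4.

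Of the 4 regulators of the response, Hif1a, Egln1 and Egln3 were highest on WT replicate 2 and Epas1 was lowest there. Hif1a, the HIF-1 alpha subunit, had levels of 2.88, 2.89 and 2.99 in FoxO1 +/- wounds, against 2.73, 3.05 and 2.77 in WT wounds, a difference of 0.07 (SE 0.11), and 0.17 without WT replicate 2. Epas1 encodes HIF-2 alpha, which is abundant in endothelium and adipose tissue, and had levels of 4.44, 4.62 and 4.54 in FoxO1 +/- wounds, against 4.50, 4.25 and 4.57 in WT wounds. Its difference was 0.10 (SE 0.11), and 0.00 without that array. The 2 alpha subunits thus placed WT replicate 2 at opposite ends, although on another, dimmer Epas1 probe that array was the highest. HIF alpha is regulated largely through protein stability, which these arrays do not measure. Egln1 (PHD2) is the main oxygen-sensing hydroxylase. It had levels of -1.65, -1.65 and -1.63 in FoxO1 +/- wounds, against -1.82, -0.11 and -1.79 in WT wounds. WT replicate 2 alone was 3.24-fold above the mean of the other WT arrays, the widest such gap among the members, on the single Egln1 probe. The Egln1 difference was -0.40 (SE 0.46, limma adjusted p 0.961), and 0.16 (SE 0.07) without that array. Egln3 (PHD3), itself a HIF target, had levels of 3.68, 3.36 and 3.77 in FoxO1 +/- wounds, against 3.57, 3.98 and 3.42 in WT wounds, a difference of -0.05 (SE 0.18), and 0.11 without WT replicate 2.

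Among the other hypoxia-induced genes, Ankrd37, an ankyrin repeat gene known as a HIF-1 target, had levels of 2.67, 2.35 and 2.73 in FoxO1 +/- wounds, against 1.75, 2.76 and 1.86 in WT wounds. The WT replicate 2 level matched the top FoxO1 +/- arrays and WT replicates 1 and 3 lay well below. The difference of 0.46 (SE 0.28, 1.38-fold, limma adjusted p 0.880) was the highest among the members. Bnip3, a mitophagy and cell death factor, had levels of 5.82, 5.78 and 6.11 in FoxO1 +/- wounds, against 5.46, 6.14 and 5.56 in WT wounds. On this probe, its brightest, Bnip3 repeated the order of Pgk1. The difference was 0.19 (SE 0.20), and 0.39 (SE 0.13, limma adjusted p 0.438) without WT replicate 2. On another Bnip3 probe FoxO1 +/- replicate 3 was the highest array, at 5.59 against 5.45 on WT replicate 2.

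P4ha1 and P4ha2 encode the catalytic subunits of collagen prolyl 4-hydroxylase, which collagen needs to fold. P4ha1 had levels of 1.01, 0.92 and 0.87 in FoxO1 +/- wounds, against 0.35, 1.21 and 0.66 in WT wounds. P4ha2 had levels of 4.66, 4.80 and 4.79 in FoxO1 +/- wounds, against 4.30, 5.16 and 4.47 in WT wounds. The FoxO1 +/- arrays lay close together, between WT replicate 2 and the other WT arrays, for both. The P4ha1 difference was 0.19 (SE 0.21), and 0.43 without WT replicate 2, and that of P4ha2 was 0.11 (SE 0.22), and 0.36 without it. Ero1l, the endoplasmic reticulum oxidase that drives disulfide formation, had levels of 0.58, 0.36 and 0.65 in FoxO1 +/- wounds, against -0.15, 1.30 and 0.36 in WT wounds. Ero1l was 2.29-fold higher on WT replicate 2 than the mean of the other WT arrays, and its difference was 0.02 (SE 0.36), and 0.42 without that array.

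In the 3 remaining members WT replicate 2 was not the highest array. Adm, the vasodilator peptide adrenomedullin, had levels of 1.96, 1.82 and 1.42 in FoxO1 +/- wounds, against 1.85, 1.20 and 1.23 in WT wounds, a difference of 0.31 (SE 0.22, limma adjusted p 0.906). Car9, a cell surface carbonic anhydrase, had levels of 1.07, 0.61 and 0.61 in FoxO1 +/- wounds, against 0.84, 0.90 and 0.55 in WT wounds. Ndrg1, a stress and differentiation gene, had levels of 4.91, 4.59 and 4.68 in FoxO1 +/- wounds, against 4.63, 4.75 and 4.62 in WT wounds. FoxO1 +/- replicate 1 was the highest array for all 3. Without WT replicate 2 their differences were 0.20, 0.07 and 0.10, and with all arrays those of Car9 and Ndrg1 were 0.00 and 0.06.

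Without WT replicate 2, all 32 members had higher means in FoxO1 +/- wounds, against 56.8% of all genes, with a median difference of 0.19 against 0.02 over all genes. For 18 members all 3 FoxO1 +/- arrays lay above WT replicates 1 and 3 (16.2% of all genes). At an unadjusted limma p of 0.05 there were 10 members, against 9.14% of all genes. All 10 were higher, against 4.51% of all genes. They were Pfkl, Pfkfb3, Tpi1, Pgk1, Pgam1, Bnip3, Ankrd37, Ddit4, P4ha1 and P4ha2. Ankrd37 then differed by 0.78 (SE 0.14, 1.72-fold, adjusted p 0.178) and Ddit4 by 0.56 (SE 0.10, 1.47-fold, adjusted p 0.185). No member passed the adjusted threshold in that fit either, where 30 genes did (0.183%). Leaving out WT replicate 1 in its place gave 16 of 32 members higher and a median of 0.00, and leaving out WT replicate 3 gave 18 and 0.01. The count of members higher thus depended on which WT array was left out. WT replicate 2 was singled out after it was seen to be highest for 23 of the members. Higher differences without it therefore follow in part from that choice, and the counts without it are description and no test of the members.

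The brightest probe stood for each gene, and 11 members had more than 1 kept probe, 26 probes in all. Of these, 18 had their highest level on WT replicate 2. With the mean over a gene's probes in place of the brightest, the count of members highest on that array was 22. Tpi1 and Bnip3 then fell out of that count and Pfkfb3 came in.

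Other genes of the same and neighbouring pathways are described by their counts, with no test against the members. Of 26 measured HIF pathway genes outside the members, 19 had higher and 7 lower means in FoxO1 +/- wounds, none at an unadjusted limma p of 0.05, and WT replicate 2 was highest for 10. Without that array 20 were higher and 6 lower. Vhl, which targets hydroxylated HIF alpha for degradation, had levels of 2.03, 1.98 and 1.97 in FoxO1 +/- wounds, against 1.90, 1.82 and 1.73 in WT wounds (adjusted p 0.796). Egln2, another HIF prolyl hydroxylase, had levels of 4.46, 4.47 and 4.50 in FoxO1 +/- wounds, against 4.40, 4.23 and 4.27 in WT wounds (adjusted p 0.815). Both were named for having the smallest p-values of the 26. The genotypes did not overlap for either gene, as for 11.5% of all genes tested, with differences of 0.18 for both.

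Of 18 other measured glycolysis genes, 14 had higher and 4 lower means in FoxO1 +/- wounds, and WT replicate 2 was highest for 2 and lowest for 7. Without that array 10 were higher and 8 lower, and the median difference was 0.05 in place of 0.11. This list holds tissue-restricted isoforms such as those of muscle and fat. Pfkfb1, the liver and muscle form of the fructose 2,6-bisphosphate enzyme, had levels of 0.12, 0.07 and 0.23 in FoxO1 +/- wounds, against -0.19, -0.37 and -0.21 in WT wounds. The genotypes did not overlap, as for 11.5% of all genes tested, and the difference was 0.40 (SE 0.09, adjusted limma p 0.443).

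Pyruvate oxidation and gluconeogenesis genes had higher means for 11 and lower for 6 of 17, and WT replicate 2 was lowest for 10. Without that array 9 were higher and 8 lower. Pcx, pyruvate carboxylase, had levels of 2.99, 3.11 and 3.20 in FoxO1 +/- wounds, against 2.58, 2.18 and 2.99 in WT wounds (difference 0.52, SE 0.20, adjusted limma p 0.791). Mpc1, a subunit of the mitochondrial pyruvate carrier, differed by 0.21 (SE 0.10). Pcx and Mpc1 were both lowest on WT replicate 2. Citric acid cycle genes had higher means for 10 and lower for 5 of 15, none at an unadjusted p of 0.05, and WT replicate 2 was lowest for 9. Without that array the tally turned round, to 5 higher and 10 lower, with a median of -0.05 in place of 0.01. The smallest p-values in that list belonged to Sdhb and Sdhd, subunits of succinate dehydrogenase, with differences of 0.10 and 0.07. Pentose phosphate genes had higher means for 3 and lower for 4 of 7 (4 higher and 3 lower without WT replicate 2), with G6pdx at -0.09 and Pgls at 0.07.

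**Figure D5:**
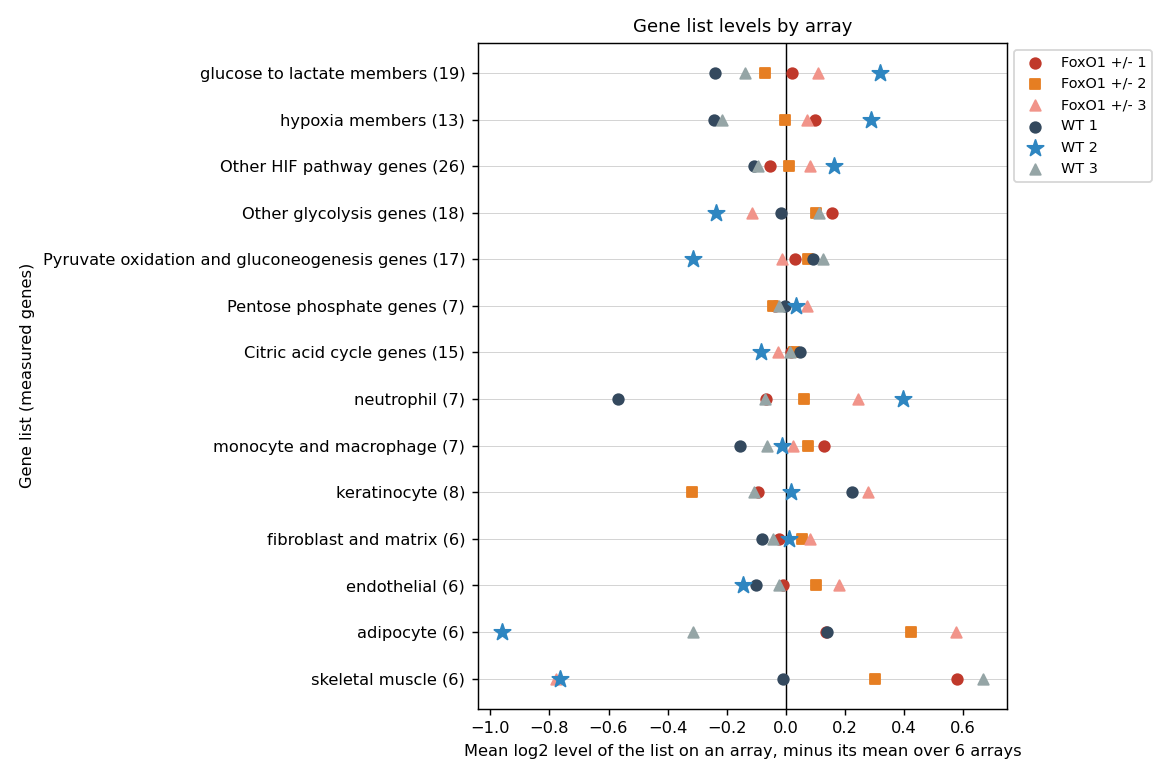
Mean log2 level of each gene list on each array, minus its mean over the 6 arrays, with the number of measured genes in parentheses. WT replicate 2 (star) is the highest array for both member groups, the other HIF pathway genes and the neutrophil list, and the lowest for other glycolysis, pyruvate oxidation, citric acid cycle, endothelial and adipocyte genes.

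Markers of the cell types in a wound also varied between arrays. The mean level of 7 neutrophil markers was 3.59, 3.72 and 3.90 in FoxO1 +/- wounds, against 3.09, 4.05 and 3.59 in WT wounds. In that mean WT replicate 2 was highest and WT replicate 1 lowest. By gene, WT replicate 2 was highest for 3 of the 7, and S100a9, Csf3r, Ngp and Retnlg were highest on FoxO1 +/- arrays. The mean of 6 adipocyte markers was 3.47, 3.76 and 3.91 in FoxO1 +/- wounds, against 3.47, 2.37 and 3.02 in WT wounds, lowest on WT replicate 2. WT replicate 2 and FoxO1 +/- replicate 3 were the low arrays for 6 skeletal muscle markers, at 4.88, 4.61 and 3.53 in FoxO1 +/- wounds, against 4.30, 3.54 and 4.97 in WT wounds. The mean of 7 macrophage markers was 5.25 to 5.35 in FoxO1 +/- wounds and 5.07 to 5.21 in WT wounds. Markers of fibroblasts and keratinocytes, both present in skin, had positive mean levels on every array. The mean of 6 endothelial markers was 1.59, 1.70 and 1.78 in FoxO1 +/- wounds, against 1.49, 1.45 and 1.57 in WT wounds, with all FoxO1 +/- arrays above all WT arrays. All 6 had higher FoxO1 +/- means, against 53.9% of all genes, with a median difference of 0.16, beside 0.07 for the glycolysis and hypoxia genes. Cdh5 and Egfl7 were at an unadjusted limma p of 0.05, with adjusted p-values of 0.791 and 0.756. Without WT replicate 2 their unadjusted limma p-values were 0.112 and 0.0851. Of all genes, 6.29% were at an unadjusted p of 0.05 with all arrays, and 11.5% had genotypes that did not overlap. Hair follicle markers were high on WT replicate 1 alone, at -3.63 to -3.14 in FoxO1 +/- wounds, against 2.04, -3.13 and -2.57 in WT wounds. Of these, Krt71 and Krt35 were well above background on only 4 arrays and Krt27 and Krt33a on 5. Some of the low values in these means are therefore close to background. Sebaceous gland markers were lower in FoxO1 +/- wounds, at -0.28 to 0.06 against 0.45 to 1.23 in WT wounds. Other markers at an unadjusted limma p of 0.05 whose genotypes did not overlap were Adipoq (0.94) and Plin1 (0.86) of fat, Ms4a7 (0.36) of macrophages, and Elovl3 (-1.41), Awat1 (-1.29) and Krt79 (-1.38) of sebaceous glands, with adjusted p-values between 0.377 and 0.756. The part of cell composition, and of the depth or position of the punch, in the levels of the members was not tested.

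In the spot measures given here, WT replicate 2 lay near the other WT arrays. RNA integrity and labelling yield were not examined, and the part of array or RNA quality in the levels on WT replicate 2 was not tested. The share of spots well above background was 71.3%, 70.1% and 64.3% on FoxO1 +/- replicates 1 to 3, against 71.8%, 71.9% and 71.3% on WT replicates 1 to 3, and no spot was saturated. The 75th percentile of the signal was between 899.9 and 1121 on FoxO1 +/- arrays and between 1151 and 1302 on WT arrays. FoxO1 +/- replicates 2 and 3 lay in slide row 2, and the other arrays, FoxO1 +/- replicate 1 among them, lay in slide row 1. Within that row, where a single FoxO1 +/- array faces the WT arrays, the members' median difference was 0.06.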

How the data were processed

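Total RNA (200 ng) from 6 wound samples was labelled with Cy3 and hybridised to 1-colour Agilent arrays of 62976 spots, per the labels' protocols. The deposited files hold linear spot intensity values, extracted by the authors with Feature Extraction 10.7.1.1 (per the file headers), and the submitters' processing notes name version 9.1. The authors' deposited value table differed from the processed signal by at most 0.4965%.

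The processed signal was divided by the 75th percentile of an array's non-control probes and log2-transformed. Spots of a probe were averaged without outlier flags. Probes were kept where all arrays of FoxO1 +/-, of WT or of both were well above background, and the probe with the highest mean stood for its gene. Of 55681 probes, 26576 were given a symbol through accessions in the RefSeq table, and 16407 genes were tested with limma 3.58.1 in R 4.3.3 (lmFit, eBayes, Benjamini-Hochberg), FoxO1 +/- minus WT. The procedure was checked on simulated data with independent noise for each gene and planted changes larger than any member's difference. That check does not show how the fit handles smaller changes or a shift shared by many genes of an array. With 3 arrays a genotype, the number of arrays limits the precision.

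The members and all other gene lists were chosen with earlier results of these data known. All members were named. From other pathway and marker lists, genes at an unadjusted p under 0.05 with genotypes that do not overlap were named, or else, for pathway lists, the 2 smallest p-values. Alternatives were other scalings, filters, probe summaries, normexp background correction (offset 50, on the median signal, because the files hold no mean signal), slide row or replicate number as a block, and leaving out single arrays. Whether WT replicate 2 was highest under other scalings was added after seeing the data. Marker genes that the filter or the table left out are not reported.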

Additional observations from a re-analysis of the deposited data

How the results depend on the processing

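No member was called at an adjusted p of 0.05 under any of 16 alternatives, and the lowest adjusted p of a member was 0.178, for Ankrd37 without WT replicate 2. Of 512 member differences under these alternatives, 61 had the opposite sign and 504 stayed within 1 SD of the reported value. That SD was the larger of the member's SDs in the genotypes, which was the WT one for 28 of 32 members. Leaving out a single array cannot move a difference by that much, so the count of 504 says little about stability. The count of genes called, 1 as reported, was 0 with the percentile taken over probes above background on all arrays, with normexp correction and with the filter on all 6 arrays, 2 with quantile normalization, 3 with no filter, 7 with slide row as a block and 4 within slide row 1. It ran between 0 and 30 when single arrays were left out, with 30 without WT replicate 2. The count of members at an unadjusted limma p of 0.05, 1 as reported, was 0 with slide row as a block (481 of 16407 genes tested). It ran between 1 and 10 with single arrays left out (681 to 1499 genes). There were 3 without WT replicate 1 (916 genes) and 10 without WT replicate 2 (1499 genes). The members' median difference ran between 0.0018 and 0.195 over all alternatives. Same-numbered arrays correlated at -0.07, -0.14 and -0.30 in their deviations from genotype means, and unlike-numbered arrays at -0.12 to 0.24. The deviations within a genotype are tied to each other, so these values cannot tell whether same-numbered arrays were handled together. The labels state no pairing. With replicate number as a block (replicate block) the count of genes called was 0. In that fit 1 member was at an unadjusted limma p of 0.05, against 795 of 16407 genes tested. WT replicate 2 was highest for 22 to 24 members under 5 other scalings and summaries. FoxO1 +/- replicate 3 had the fewest spots above background, which limits its dim probes, and no member was below background. The cause of these changes was not tested.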
